A study of Mus musculus with 12 samples.

Results

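The difference that separates Ebf2-EGFP+ from Ebf2-EGFP- cells in embryonic mouse cortex was followed from E11.5 to E13.5, in days of embryonic development, by asking for each gene how far the difference at E13.5 departed from the difference at E11.5. The libraries were chosen by their labels alone, as the 8 of 12 libraries that come from these stages, with 2 replicates of each population at each stage. All of the embryos carried the Tg(Ebf2-EGFP)FB58Gsat transgene, a GENSAT bacterial artificial chromosome in which regulatory sequence of *Ebf2* drives EGFP, and the day of the vaginal plug counts as E0.5. The groups are E11.5 Ebf2-EGFP+, E11.5 Ebf2-EGFP-, E13.5 Ebf2-EGFP+ and E13.5 Ebf2-EGFP- cells, sorted by FACS after papain dissociation of the cortex, and several EGFP-positive embryos from several mothers were pooled for each sort. No treatment or mutation separates the groups. The populations differ by the sort and the stages by age. Each stage also had its own dissections, pools and sorts, which cannot be told apart from age here. The remaining 4 libraries, of E15.5, entered the fit of the spread and are quoted only where stated.

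In this line EGFP marks early-born neurons of the preplate, the first postmitotic layer of the cortex, which holds Cajal-Retzius cells and future subplate neurons. Cajal-Retzius cells keep the reporter longer than subplate neurons do, and progenitors dominate the negative fraction early. The paper states that by E13.5 the negative fraction holds cortical plate neurons as well. Cortical glutamatergic neurons are made through a cascade of transcription factors, in which the proneural basic helix-loop-helix (bHLH) factors *Neurog1* and *Neurog2* act in progenitors, *Eomes* in intermediate progenitors, *Neurod* and *Nhlh* bHLH factors in newborn neurons, and the T-box factor *Tbr1* in early-born postmitotic neurons. In bulk libraries, fewer cells of a type and less RNA per cell cannot be told apart.

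Of the 10 genes whose difference fell most, 6 belong to this cascade. The promoters of *Tbr1*, *Neurod1*, *Neurod2* and *Nhlh1* among them are shown, because the products of the last 3 bind the E-box, CANNTG. The windows run from 250 bases before to 50 bases after the start that RefSeq gives on GRCm38.p6, each printed 5′ to 3′ on the strand of its gene, with every CANNTG in capitals. They lie at chr2:61804203-61804502 on the plus strand for *Tbr1*, chr2:79456587-79456886 on the minus strand for *Neurod1*, chr11:98329596-98329895 on the minus strand for *Neurod2* and chr1:172057547-172057846 on the minus strand for *Nhlh1*.
Tbr1: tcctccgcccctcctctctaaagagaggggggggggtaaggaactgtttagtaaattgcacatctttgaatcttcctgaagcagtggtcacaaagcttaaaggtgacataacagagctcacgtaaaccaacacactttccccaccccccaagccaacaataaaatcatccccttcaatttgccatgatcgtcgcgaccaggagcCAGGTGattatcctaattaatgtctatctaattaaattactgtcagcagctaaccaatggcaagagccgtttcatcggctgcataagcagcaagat
Neurod1: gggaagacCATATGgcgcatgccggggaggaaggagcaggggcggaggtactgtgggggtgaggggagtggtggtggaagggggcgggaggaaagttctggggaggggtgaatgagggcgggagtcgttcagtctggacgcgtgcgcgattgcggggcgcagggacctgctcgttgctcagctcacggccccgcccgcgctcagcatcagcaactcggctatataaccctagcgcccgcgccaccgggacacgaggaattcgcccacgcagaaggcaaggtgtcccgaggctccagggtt
Neurod2: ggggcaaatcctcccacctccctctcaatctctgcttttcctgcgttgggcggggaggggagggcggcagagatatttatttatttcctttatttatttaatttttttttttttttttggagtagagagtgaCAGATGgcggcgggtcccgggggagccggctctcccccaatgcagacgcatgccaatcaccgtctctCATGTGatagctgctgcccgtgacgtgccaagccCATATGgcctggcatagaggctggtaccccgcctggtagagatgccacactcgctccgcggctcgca
Nhlh1: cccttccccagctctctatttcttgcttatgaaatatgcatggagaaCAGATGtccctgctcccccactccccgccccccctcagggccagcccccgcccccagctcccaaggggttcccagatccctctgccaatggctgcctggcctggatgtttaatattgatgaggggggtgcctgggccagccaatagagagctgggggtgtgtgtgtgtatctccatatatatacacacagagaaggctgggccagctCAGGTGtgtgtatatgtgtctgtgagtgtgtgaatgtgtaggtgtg
CANNTG reads the same on both strands. It was found in 8 of the 9 promoters matched among the 10 genes, and in 72.1% of all 27025 promoters in the RefSeq table. Among the 3558 tested coding genes with a matched promoter the share was 61.6%. The form CAGATG, or CATCTG on the other strand, which *Neurod2* and *Nhlh1* hold, was found in 2 of these 9. It was found in 17.2% of all promoters and in 11.1% of those of the tested coding genes. A match of letters is not a bound site.

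Levels are FPKM, which scale the fragments of a transcript by its length and by all mapped fragments of the library. There are 4859 genes in the coding table and 200 transcripts in the lncRNA table. Only features called differential by the authors in these same libraries were kept in them, so that counts below are counts within those lists. Summed FPKM over the coding table ranged from 111136 to 130890 in the 8 libraries, and the depth behind it is unknown here. The pallial factor *Lhx2* was present in every library, at 116 to 279 FPKM. Values were tested as log2(FPKM + 1) with limma and Benjamini-Hochberg adjustment, and a call needed an adjusted p under 0.05. The interaction is the difference (Ebf2-EGFP+ minus Ebf2-EGFP-) at E13.5 minus that at E11.5, in log2 units, so that a negative value means that the gene lost ground in Ebf2-EGFP+ cells relative to Ebf2-EGFP- cells. It equals the change in Ebf2-EGFP+ cells minus the change in Ebf2-EGFP- cells, each E13.5 minus E11.5, and these changes say which population moved. A pair of values gives replicates 1 and 2 in that order, and ± is the standard error of the fit.

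The interaction was called for 1709 of the 4859 coding genes (35.2%). It was negative in 952 (19.6%) and positive in 757 (15.6%), and 984 of the 1709 had an absolute size of at least 1. Neither population accounted for most of the calls. In 563 genes only the change in Ebf2-EGFP+ cells passed the test, with 265 rising and 298 falling, and in 540 only the change in Ebf2-EGFP- cells passed, with 314 rising and 226 falling. Both populations changed the same way, by different amounts, in 411 genes, they changed in opposite ways in 176, and in 19 neither change passed. A change that missed the threshold is not shown to be absent. Over all genes, 57.9% changed in Ebf2-EGFP+ cells (21.8% rose and 36.1% fell) and 59.5% in Ebf2-EGFP- cells (26.0% rose and 33.5% fell). Scaling the libraries by median of ratios moved the median change of all genes from -0.20 to -0.05 in Ebf2-EGFP+ cells and from -0.14 to -0.02 in Ebf2-EGFP- cells, and 1548 of the 1709 calls remained with the same direction, 1287 of them in the same class. Without E11.5 Ebf2-EGFP+ replicate 1, 503 genes had a positive call. The genes changing only in Ebf2-EGFP- cells numbered 342 without E11.5 Ebf2-EGFP- replicate 1 and 342 without E13.5 Ebf2-EGFP- replicate 2. Those changing the same way in both numbered 245, 249, 268 and 235, and those changing in opposite ways 100, 112, 105 and 99, without E11.5 Ebf2-EGFP+ replicate 1, E11.5 Ebf2-EGFP+ replicate 2, E11.5 Ebf2-EGFP- replicate 1 and E13.5 Ebf2-EGFP+ replicate 2 respectively.

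**Figure D1:**
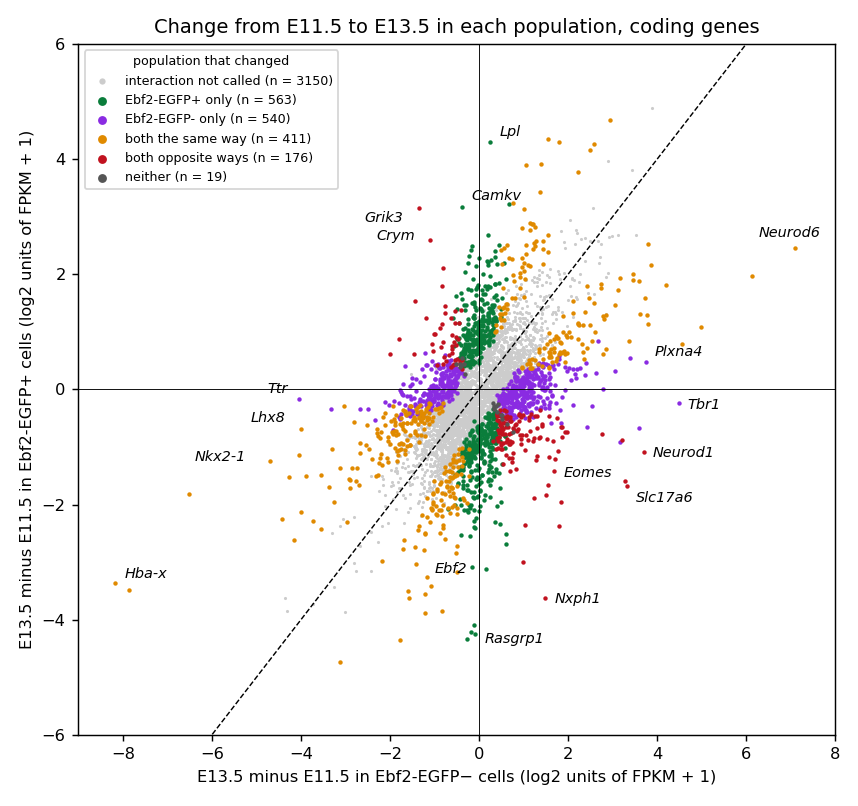
Each point is a coding gene, with its change from E11.5 to E13.5 in Ebf2-EGFP- cells on the horizontal axis and in Ebf2-EGFP+ cells on the vertical axis, in log2 units of FPKM + 1. Grey points had no called interaction, colours give the population whose change passed the test among the 1709 called genes, and the dashed line marks equal change, below which *Tbr1*, *Neurod1* and *Nxph1* lie and above which *Lpl*, *Grik3* and *Hba-x* lie.

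The difference between the populations narrowed in 883 of the 1709 genes, widened in 270 and turned round in 556. Of the genes with a negative interaction, 520 started higher in Ebf2-EGFP+ cells and narrowed, and 303 started higher there and turned round. Over all genes, the difference itself was called in 81.7% at E11.5 and 75.6% at E13.5. It was called at both stages with opposite signs in 162 of the 1709, 95 of them starting higher in Ebf2-EGFP+ cells and 67 starting lower. The E15.5 libraries, which do not enter the interaction, gave a difference nearer to that at E13.5 than to that at E11.5 in 860 of the 883 genes that narrowed, 181 of the 270 that widened and 505 of the 556 that turned round. The sign at E13.5 was kept at E15.5 in 592, 265 and 486 of them respectively. In a gene that narrowed, any small or opposite difference at E15.5 counts as nearer to that at E13.5. These counts are therefore a description and no test.

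The most negative interactions included the genes of newborn glutamatergic neurons, which at E11.5 were under 3 FPKM in Ebf2-EGFP- cells and were well above that in both populations at E13.5. *Tbr1* lies at chr2:61802930-61814114, *Neurod1* at chr2:79452521-79456751, where it shares a stretch with *Cerkl* on the same strand, and *Plxna4* at chr6:32144268-32588192, with antisense transcripts (GENCODE M21 on GRCm38). Reads from such partners cannot be told apart here. The same holds for other genes below, such as *Rnd2*, *Tmem163* and *Junb*. These overlap *Vat1*, *Mgat5* and *Prdx2* respectively on the opposite strand. *Tbr1*, the T-box factor of early-born neurons, was at 268 and 268 FPKM in Ebf2-EGFP+ and 2.49 and 2.17 in Ebf2-EGFP- libraries at E11.5, and at 225 and 228 and 66.1 and 81.7 respectively at E13.5. The Ebf2-EGFP+ libraries stood above the Ebf2-EGFP- libraries at both stages, and Ebf2-EGFP- cells rose while the change in Ebf2-EGFP+ cells did not pass the test (-0.24 in Ebf2-EGFP+ and 4.49 in Ebf2-EGFP- cells, adjusted p = 0.311 for the former). The interaction of *Tbr1* was -4.73 ± 0.28 (adjusted p = 1.65e-06). *Neurod1*, a bHLH factor of neuronal differentiation, measured 70.4 and 62.0 FPKM in E11.5 Ebf2-EGFP+ libraries, 1.56 and 2.23 in E11.5 Ebf2-EGFP- libraries, 38.9 and 24.2 in E13.5 Ebf2-EGFP+ libraries and 36.6 and 36.3 in E13.5 Ebf2-EGFP- libraries. The groups were far apart at E11.5 and overlapped at E13.5. Both populations moved, in opposite ways (-1.08 in Ebf2-EGFP+ and 3.70 in Ebf2-EGFP- cells), and the interaction was -4.78 ± 0.55 (adjusted p = 0.000111). The fall in Ebf2-EGFP+ cells no longer passed under median-of-ratios scaling, whereas the rise in Ebf2-EGFP- cells did. Without E11.5 Ebf2-EGFP+ replicate 1, E11.5 Ebf2-EGFP+ replicate 2 or E13.5 Ebf2-EGFP+ replicate 2, the fall of *Neurod1* in Ebf2-EGFP+ cells missed the threshold (adjusted p from 0.0864 to 0.218).

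*Neurod6* and *Neurod2*, later bHLH factors of the same family that last in pyramidal neurons, rose in both populations, by much more in Ebf2-EGFP- cells. *Neurod6* went from 69.0 and 97.0 FPKM at E11.5 to 472 and 436 at E13.5 in Ebf2-EGFP+ libraries, and from 0.779 and 1.54 to 257 and 322 in Ebf2-EGFP- libraries. The rise was 7.09 in Ebf2-EGFP- cells against 2.46 in Ebf2-EGFP+ cells, for an interaction of -4.63 ± 0.31 (adjusted p = 3.29e-06). *Neurod2* was at 50.5 and 62.1 FPKM in Ebf2-EGFP+ and 0.795 and 0.747 in Ebf2-EGFP- libraries at E11.5, and at 218 and 229 and 110.5 and 137 respectively at E13.5. Its rise was 6.13 in Ebf2-EGFP- cells against 1.98 in Ebf2-EGFP+ cells, for an interaction of -4.15 ± 0.32 (adjusted p = 7.92e-06). All Ebf2-EGFP+ libraries of both genes stayed above the Ebf2-EGFP- libraries of their stage. *Nhlh1*, a bHLH factor of newborn neurons, measured 101 and 100.3 FPKM in E11.5 Ebf2-EGFP+ libraries, 2.04 and 2.06 in E11.5 Ebf2-EGFP- libraries, 69.5 and 57.5 in E13.5 Ebf2-EGFP+ libraries and 32.5 and 39.2 in E13.5 Ebf2-EGFP- libraries. Here Ebf2-EGFP- cells alone passed the test (-0.66 in Ebf2-EGFP+ and 3.59 in Ebf2-EGFP- cells, adjusted p = 0.25 for the former), and the interaction was -4.25 ± 0.67 (adjusted p = 0.000668). At E15.5 *Nhlh1* lay between 4.97 and 28.6 FPKM over the 4 libraries of both populations.

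Upstream in the cascade, the factors of neurogenic progenitors were on balance higher in Ebf2-EGFP+ cells at E11.5 (10 of 11 genes, median difference 0.86) and higher in Ebf2-EGFP- cells at E13.5 (median difference -1.15). Of the 11 genes listed for neurogenic progenitors and commitment, all in the table, 10 had a called negative interaction, beside 19.6% of all genes, and their median interaction was -1.97 against -0.06 over all genes. 8 of the 11 fell in Ebf2-EGFP+ cells and 8 rose in Ebf2-EGFP- cells, beside 36.1% and 26.0% of all genes. *Eomes*, the factor of intermediate progenitors, went from 142 and 139 FPKM at E11.5 to 54.6 and 38.7 at E13.5 in Ebf2-EGFP+ libraries, and from 8.08 and 11.7 to 110.1 and 96.0 in Ebf2-EGFP- libraries. The order of the populations reversed without overlap, with a difference of 3.72 at E11.5 and -1.15 at E13.5, both called. Both populations moved (-1.59 in Ebf2-EGFP+ and 3.28 in Ebf2-EGFP- cells), and the interaction was -4.87 ± 0.43 (adjusted p = 1.83e-05).

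*Neurog2*, a proneural factor, was at 34.8 and 34.9 FPKM in Ebf2-EGFP+ and 19.9 and 23.0 in Ebf2-EGFP- libraries at E11.5, and at 29.2 and 16.2 and 158 and 91.7 respectively at E13.5. Ebf2-EGFP- cells rose (2.43) and the change in Ebf2-EGFP+ cells did not pass (-0.65, adjusted p = 0.184), with an interaction of -3.09 ± 0.57 (adjusted p = 0.00176). *Neurog1*, its close relative, measured 10.3 and 7.64 FPKM in E11.5 Ebf2-EGFP+ libraries, 4.32 and 4.54 in E11.5 Ebf2-EGFP- libraries, 1.20 and 0.673 in E13.5 Ebf2-EGFP+ libraries and 12.4 and 8.2001 in E13.5 Ebf2-EGFP- libraries. It fell in Ebf2-EGFP+ cells (-2.36) and rose in Ebf2-EGFP- cells (1.03), with an interaction of -3.40 ± 0.56 (adjusted p = 0.000826). The rise of *Neurog1* in Ebf2-EGFP- cells missed the threshold without E11.5 Ebf2-EGFP+ replicate 1, E11.5 Ebf2-EGFP+ replicate 2, E11.5 Ebf2-EGFP- replicate 1, E11.5 Ebf2-EGFP- replicate 2, E13.5 Ebf2-EGFP- replicate 1 or E13.5 Ebf2-EGFP- replicate 2 (adjusted p from 0.054 to 0.199). *Neurod4*, *Mfng*, *Insm1*, *Dll3*, *Hes6*, *Btg2* and *Dll1* were the other called members, with interactions from -3.21 to -1.20. The call of *Dll1* was lost without E11.5 Ebf2-EGFP+ replicate 1 or E13.5 Ebf2-EGFP+ replicate 2 (adjusted p = 0.0561 and 0.0644). *Gadd45g* was the member not called (-1.19, adjusted p = 0.089), and it was called with the replicate number as a block (adjusted p = 0.000516).

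**Figure D2:**
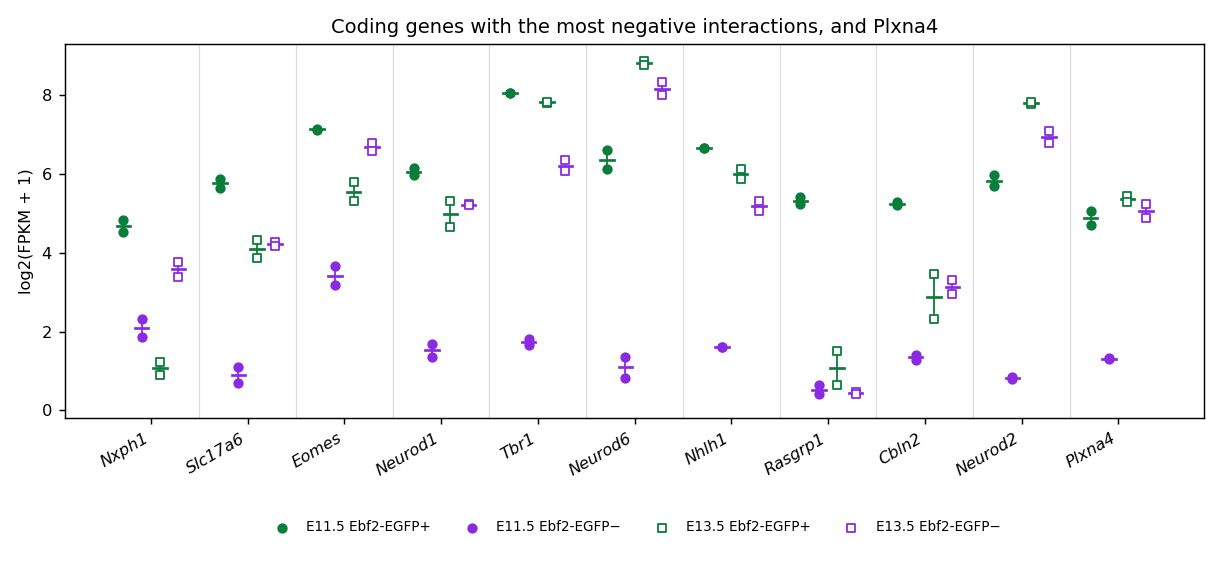
Levels in the 8 libraries, as log2(FPKM + 1), of the 10 coding genes with the most negative interactions and of *Plxna4*. Filled circles are E11.5 and open squares E13.5, green is Ebf2-EGFP+ and purple Ebf2-EGFP-, the short bar is the mean of both replicates and the thin line joins them. Most genes show an Ebf2-EGFP- value near 1 or 2 at E11.5 that climbs at E13.5, whereas *Rasgrp1* shows a fall in Ebf2-EGFP+ cells alone.

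Postmitotic cortical factors had calls in both directions. Of 28 in the table, 13 had a negative and 5 a positive interaction, with a median of -0.39, beside 19.6% and 15.6% of all genes. With the replicate block 14 were negative and 8 positive, beside 1426 negative and 1092 positive of all 4859 genes. *Etv1*, an ETS factor of layer 5, and *Lmo3*, a LIM-only protein, are given as examples chosen after their values were seen. *Etv1* had the largest fall of the list in Ebf2-EGFP+ cells. *Etv1* went from 36.2 and 33.2 FPKM at E11.5 to 2.48 and 0.770 at E13.5 in Ebf2-EGFP+ libraries, and from 7.07 and 6.82 to 3.99 and 2.999 in Ebf2-EGFP- libraries. Its change was -3.85 in Ebf2-EGFP+ cells against -0.83 in Ebf2-EGFP- cells, for an interaction of -3.02 ± 0.42 (adjusted p = 0.000294). *Lmo3* was at 6.80 and 5.17 FPKM in Ebf2-EGFP+ and 11.1 and 12.1 in Ebf2-EGFP- libraries at E11.5, and at 26.5 and 34.01 and 13.3 and 13.47 respectively at E13.5. Its order reversed without overlap, and Ebf2-EGFP+ cells alone passed the test, by rising (2.16 in Ebf2-EGFP+ and 0.19 in Ebf2-EGFP- cells, adjusted p = 0.403 for the latter), with an interaction of 1.97 ± 0.27 (adjusted p = 0.000291). *Nfix*, *Ldb2*, *Sox5* and *Tle4* were also positive, at 1.66, 1.60, 1.56 and 0.76. The call of *Nfix* was lost without E11.5 Ebf2-EGFP+ replicate 1, E11.5 Ebf2-EGFP- replicate 1, E11.5 Ebf2-EGFP- replicate 2, E13.5 Ebf2-EGFP+ replicate 2 or E13.5 Ebf2-EGFP- replicate 1 (adjusted p from 0.0511 to 0.106). The call of *Tle4* was lost without E11.5 Ebf2-EGFP+ replicate 2, E11.5 Ebf2-EGFP- replicate 1 or E13.5 Ebf2-EGFP+ replicate 2 (adjusted p from 0.0636 to 0.0778). *Bcl11b*, a factor of subcerebral neurons, had an interaction of 0.03 that was not called (adjusted p = 0.979).

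Receptors and adhesion molecules of migrating and extending neurons gave more negative than positive calls. Of 23 semaphorins, plexins and neuropilins in the table, 9 had a negative interaction, 2 a positive one and 12 no call (median -0.55), beside 19.6% negative and 15.6% positive of all genes. *Plxna4*, a plexin that receives class 3 and class 6 semaphorin signals, measured 25.1 and 32.5 FPKM in E11.5 Ebf2-EGFP+ libraries, 1.51 and 1.45 in E11.5 Ebf2-EGFP- libraries, 42.5 and 38.1 in E13.5 Ebf2-EGFP+ libraries and 28.6 and 36.5 in E13.5 Ebf2-EGFP- libraries. At E13.5 the libraries of both populations lay close together without overlap, after a rise in Ebf2-EGFP- cells (3.75), while the change in Ebf2-EGFP+ cells did not pass (0.48, adjusted p = 0.179). Its interaction was -3.27 ± 0.41 (adjusted p = 0.000174). At E15.5 *Plxna4* was at 11.7 and 17.8 in Ebf2-EGFP+ and 31.8 and 65.6 in Ebf2-EGFP- libraries.

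*Sema5a*, a transmembrane semaphorin, went from 11.2 and 11.8 FPKM at E11.5 to 6.35 and 3.88 at E13.5 in Ebf2-EGFP+ libraries, and from 17.0 and 13.3 to 35.5 and 28.7 in Ebf2-EGFP- libraries. It fell in Ebf2-EGFP+ cells and rose in Ebf2-EGFP- cells (-1.06 in Ebf2-EGFP+ and 1.04 in Ebf2-EGFP- cells), so that a difference not called at E11.5 (-0.36) became -2.46, and the interaction was -2.10 ± 0.29 (adjusted p = 0.000299). *Sema4d*, another transmembrane semaphorin, was at 2.28 and 2.56 FPKM in Ebf2-EGFP+ and 5.02 and 4.57 in Ebf2-EGFP- libraries at E11.5, and at 19.2 and 17.7 and 7.37 and 8.42 respectively at E13.5. Its order reversed the opposite way, from higher in Ebf2-EGFP- to higher in Ebf2-EGFP+ libraries without overlap at either stage. Both populations rose, Ebf2-EGFP+ cells more (2.51 in Ebf2-EGFP+ and 0.62 in Ebf2-EGFP- cells), for an interaction of 1.89 ± 0.25 (adjusted p = 0.000224). Without E11.5 Ebf2-EGFP- replicate 2 or E13.5 Ebf2-EGFP- replicate 2, the rise of *Sema4d* in Ebf2-EGFP- cells missed the threshold (adjusted p = 0.0651 and 0.0707).

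Among 29 genes of netrin, slit, ephrin and axonal adhesion families, 14 had a negative interaction, 5 a positive one and 10 no call (median -0.67). Over all genes 19.6% were negative and 15.6% positive, the latter close to the positive share of this list. *Cntn2*, an axonal adhesion protein, measured 99.7 and 106 FPKM in E11.5 Ebf2-EGFP+ libraries, 3.10 and 3.20 in E11.5 Ebf2-EGFP- libraries, 188 and 255 in E13.5 Ebf2-EGFP+ libraries and 92.8 and 186 in E13.5 Ebf2-EGFP- libraries. Ebf2-EGFP- cells rose by 4.99 and Ebf2-EGFP+ cells by 1.08, for an interaction of -3.91 ± 0.37 (adjusted p = 2.98e-05). *Robo3* and *Robo2* differed in which population moved. *Robo3* went from 20.6 and 28.6 FPKM at E11.5 to 1.13 and 0.375 at E13.5 in Ebf2-EGFP+ libraries, and from 2.22 and 5.88 to 1.31 and 0.766 in Ebf2-EGFP- libraries. Both populations fell, Ebf2-EGFP+ cells further (-3.89 in Ebf2-EGFP+ and -1.22 in Ebf2-EGFP- cells), with an interaction of -2.67 ± 0.45 (adjusted p = 0.00098). The fall of *Robo3* in Ebf2-EGFP- cells missed the threshold without E11.5 Ebf2-EGFP- replicate 2 or E13.5 Ebf2-EGFP- replicate 2 (adjusted p = 0.0736 and 0.0628). *Robo2* was at 41.6 and 40.2 FPKM in Ebf2-EGFP+ and 7.39 and 7.82 in Ebf2-EGFP- libraries at E11.5, and at 28.5 and 25.8 and 26.0 and 33.8 respectively at E13.5. Here Ebf2-EGFP- cells alone passed, by rising (-0.58 in Ebf2-EGFP+ and 1.83 in Ebf2-EGFP- cells, adjusted p = 0.0968 for the former), with an interaction of -2.41 ± 0.40 (adjusted p = 0.000823). *Ephb1*, *Cntn1*, *Slit3*, *Ntn1* and *Robo1* were the positive members, from 2.09 down to 1.32. The call of *Robo1* was lost without E11.5 Ebf2-EGFP+ replicate 2, E11.5 Ebf2-EGFP- replicate 1 or E13.5 Ebf2-EGFP+ replicate 2 (adjusted p from 0.0525 to 0.0579).

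For the cytoskeleton and migration, 12 of 31 genes had a negative and 2 a positive interaction (median -0.65), beside 19.6% and 15.6% of all genes. In Ebf2-EGFP- cells 21 rose, beside 26.0% of all genes, and in Ebf2-EGFP+ cells 6 rose, beside 21.8%. *Rnd2*, a small GTPase of radial migration, measured 325 and 344 FPKM in E11.5 Ebf2-EGFP+ libraries, 42.2 and 49.1 in E11.5 Ebf2-EGFP- libraries, 604 and 492 in E13.5 Ebf2-EGFP+ libraries and 357 and 309 in E13.5 Ebf2-EGFP- libraries. It rose in both populations, more in Ebf2-EGFP- cells (0.70 in Ebf2-EGFP+ and 2.84 in Ebf2-EGFP- cells), with an interaction of -2.14 ± 0.34 (adjusted p = 0.00065). Without E11.5 Ebf2-EGFP+ replicate 1, E11.5 Ebf2-EGFP+ replicate 2 or E13.5 Ebf2-EGFP+ replicate 1, the rise of *Rnd2* in Ebf2-EGFP+ cells missed the threshold (adjusted p from 0.0756 to 0.14). *Dcx*, a microtubule-associated protein of migrating neurons, went from 300.4 and 257 FPKM at E11.5 to 246 and 259.7 at E13.5 in Ebf2-EGFP+ libraries, and from 37.3 and 39.9 to 120.0 and 170.4 in Ebf2-EGFP- libraries. Its rise in Ebf2-EGFP- cells passed and its change in Ebf2-EGFP+ cells did not (-0.13 in Ebf2-EGFP+ and 1.86 in Ebf2-EGFP- cells, adjusted p = 0.623 for the former), with an interaction of -1.997 ± 0.32 (adjusted p = 0.000668). *Dab1*, the adaptor through which cells receive the Reelin signal, was at 18.9 and 14.3 FPKM in Ebf2-EGFP+ and 24.0 and 20.4 in Ebf2-EGFP- libraries at E11.5, and at 76.8 and 92.5 and 31.6 and 40.7 respectively at E13.5. The difference of -0.41 at E11.5 became 1.21 at E13.5, with Ebf2-EGFP+ cells rising more (2.29 in Ebf2-EGFP+ and 0.67 in Ebf2-EGFP- cells) and an interaction of 1.62 ± 0.25 (adjusted p = 0.00063). The rise of *Dab1* in Ebf2-EGFP- cells missed the threshold without E11.5 Ebf2-EGFP- replicate 2 or E13.5 Ebf2-EGFP- replicate 2 (adjusted p = 0.0619 and 0.0749). The count of 12 was 25 with the replicate block, beside 1426 negative calls over all 4859 genes. Without E11.5 Ebf2-EGFP+ replicate 1 the median of the list was -0.58.

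Genes of transmitter release and glutamate transport gave 11 negative and 1 positive interaction among 29 (median -0.52), beside 19.6% and 15.6% of all genes. In Ebf2-EGFP- cells 23 of the 29 rose, beside 26.0% of all genes. *Slc17a6*, which encodes the vesicular glutamate transporter VGLUT2, measured 49.3 and 58.0 FPKM in E11.5 Ebf2-EGFP+ libraries, 0.622 and 1.15 in E11.5 Ebf2-EGFP- libraries, 19.1 and 13.55 in E13.5 Ebf2-EGFP+ libraries and 18.4 and 16.9 in E13.5 Ebf2-EGFP- libraries. The populations overlapped at E13.5 after a fall in Ebf2-EGFP+ cells and a rise in Ebf2-EGFP- cells (-1.67 in Ebf2-EGFP+ and 3.32 in Ebf2-EGFP- cells), and the interaction was -4.99 ± 0.35 (adjusted p = 3.89e-06). *Slc17a7*, which encodes VGLUT1, went from 23.3 and 25.9 FPKM at E11.5 to 59.3 and 52.0 at E13.5 in Ebf2-EGFP+ libraries, and from 0.197 and 0.244 to 14.3 and 17.5 in Ebf2-EGFP- libraries. It rose in both, more in Ebf2-EGFP- cells (1.14 in Ebf2-EGFP+ and 3.79 in Ebf2-EGFP- cells), with an interaction of -2.64 ± 0.38 (adjusted p = 0.000352). *Syt4*, a synaptotagmin, was at 27.8 and 21.4 FPKM in Ebf2-EGFP+ and 2.48 and 2.37 in Ebf2-EGFP- libraries at E11.5, and at 74.9 and 51.3 and 35.5 and 46.9 respectively at E13.5. It too rose in both populations (1.31 in Ebf2-EGFP+ and 3.61 in Ebf2-EGFP- cells), with an interaction of -2.30 ± 0.35 (adjusted p = 0.000498).

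Of 16 glutamate receptor genes, 7 had a negative and 2 a positive interaction, beside 19.6% and 15.6% of all genes. The negative count was 4 without E11.5 Ebf2-EGFP+ replicate 2, E11.5 Ebf2-EGFP- replicate 1 or E13.5 Ebf2-EGFP+ replicate 2. *Grik3*, a kainate receptor subunit, measured 1.505 and 1.95 FPKM in E11.5 Ebf2-EGFP+ libraries, 15.3 and 20.5 in E11.5 Ebf2-EGFP- libraries, 18.9 and 28.4 in E13.5 Ebf2-EGFP+ libraries and 4.69 and 8.45 in E13.5 Ebf2-EGFP- libraries. The order of the populations reversed without overlap, from -2.78 at E11.5 to 1.72 at E13.5. Ebf2-EGFP+ cells rose and Ebf2-EGFP- cells fell (3.15 in Ebf2-EGFP+ and -1.35 in Ebf2-EGFP- cells), for an interaction of 4.50 ± 0.38 (adjusted p = 1.3e-05), and at E15.5 the difference was 1.80. *Gria3*, an AMPA receptor subunit, went from 1.65 and 1.64 FPKM at E11.5 to 16.6 and 18.5 at E13.5 in Ebf2-EGFP+ libraries, and from 1.60 and 1.34 to 3.26 and 4.47 in Ebf2-EGFP- libraries. All E11.5 libraries were under 2 FPKM and both populations rose, Ebf2-EGFP+ cells more (2.81 in Ebf2-EGFP+ and 0.97 in Ebf2-EGFP- cells), with an interaction of 1.84 ± 0.27 (adjusted p = 0.000414).

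Genes of Cajal-Retzius cells lost ground mainly through falls in Ebf2-EGFP+ cells. Of 13 in the table, 9 had a negative interaction and 0 a positive one (median -1.75), beside 19.6% and 15.6% of all genes. In Ebf2-EGFP+ cells 11 fell, beside 36.1%. At E11.5, 12 of the 13 were higher in Ebf2-EGFP+ cells. The authors had listed members such as *Nhlh2*, *Tmem163* and *Cacna2d2* as higher there at every stage of these same libraries. Their sign at E11.5 therefore follows from that choice. *Ebf2*, the gene whose regulatory sequence drives EGFP and therefore the sort, was at 61.2 and 49.1 FPKM in Ebf2-EGFP+ and 1.17 and 0.952 in Ebf2-EGFP- libraries at E11.5, and at 6.66 and 4.32 and 1.54 and 1.05 respectively at E13.5. Ebf2-EGFP+ cells alone passed the test, by falling (-3.13 in Ebf2-EGFP+ and 0.15 in Ebf2-EGFP- cells, adjusted p = 0.623 for the latter), with an interaction of -3.27 ± 0.35 (adjusted p = 6.93e-05). *Nhlh2*, a bHLH factor, measured 107 and 83.7 FPKM in E11.5 Ebf2-EGFP+ libraries, 1.85 and 1.31 in E11.5 Ebf2-EGFP- libraries, 26.8 and 24.8 in E13.5 Ebf2-EGFP+ libraries and 6.28 and 6.29 in E13.5 Ebf2-EGFP- libraries. It fell in Ebf2-EGFP+ cells and rose in Ebf2-EGFP- cells (-1.84 in Ebf2-EGFP+ and 1.51 in Ebf2-EGFP- cells), with an interaction of -3.34 ± 0.40 (adjusted p = 0.00013). *Tmem163*, a zinc transporter, went from 65.2 and 52.5 FPKM at E11.5 to 10.4 and 8.61 at E13.5 in Ebf2-EGFP+ libraries, and from 0.967 and 0.817 to 2.26 and 1.55 in Ebf2-EGFP- libraries. The fall in Ebf2-EGFP+ cells passed and the rise in Ebf2-EGFP- cells did not (-2.50 in Ebf2-EGFP+ and 0.61 in Ebf2-EGFP- cells, adjusted p = 0.0551 for the latter), although the latter passed under median-of-ratios scaling, and the interaction was -3.11 ± 0.36 (adjusted p = 0.00011).

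*Reln*, which encodes the secreted glycoprotein of Cajal-Retzius cells and is singled out after its values were seen, did not share the fall. *Reln* was at 75.9 and 76.3 FPKM in Ebf2-EGFP+ and 2.98 and 2.79 in Ebf2-EGFP- libraries at E11.5, and at 125 and 187 and 2.77 and 4.22 respectively at E13.5. It rose in Ebf2-EGFP+ cells (1.00), and its interaction of 0.81 was not called (adjusted p = 0.193, and 0.0826 with the replicate block). *Calb2*, *Lhx1*, *Ebf3* and *Cdkn1a* fell in Ebf2-EGFP+ cells, with log2 changes of -1.91, -2.09, -2.10 and -2.29, and all 4 had called interactions.

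The subplate and preplate list had 7 negative and 1 positive interaction among 10 genes (median -1.53), beside 19.6% and 15.6% of all genes. Of the 10, 7 rose in Ebf2-EGFP- cells, beside 26.0%. The authors had put *Syt4*, *Igfbpl1* and *Myt1* of this list in a class drawn from these same libraries. In that class the ratio of Ebf2-EGFP+ to Ebf2-EGFP- levels fell with stage, so their negative direction is no independent result. *Nxph4*, a secreted neurexophilin, measured 114 and 104 FPKM in E11.5 Ebf2-EGFP+ libraries, 1.57 and 1.38 in E11.5 Ebf2-EGFP- libraries, 58.1 and 57.0 in E13.5 Ebf2-EGFP+ libraries and 18.4 and 24.7 in E13.5 Ebf2-EGFP- libraries. Ebf2-EGFP- cells rose, and the change in Ebf2-EGFP+ cells did not pass (-0.91 in Ebf2-EGFP+ and 3.18 in Ebf2-EGFP- cells, adjusted p = 0.058 for the former), for an interaction of -4.09 ± 0.54 (adjusted p = 0.000224). *Myt1*, a zinc finger factor, went from 82.7 and 81.7 FPKM at E11.5 to 38.7 and 35.0 at E13.5 in Ebf2-EGFP+ libraries, and from 20.0 and 25.0 to 34.9 and 34.2 in Ebf2-EGFP- libraries. It fell in Ebf2-EGFP+ cells and rose in Ebf2-EGFP- cells to a narrow range at E13.5 (-1.14 in Ebf2-EGFP+ and 0.60 in Ebf2-EGFP- cells), with an interaction of -1.74 ± 0.25 (adjusted p = 0.000338). Without E11.5 Ebf2-EGFP- replicate 1, the rise of *Myt1* in Ebf2-EGFP- cells missed the threshold (adjusted p = 0.105). *Nxph3*, the positive member, had an interaction of 1.65. The call of *Nxph3* was lost without E11.5 Ebf2-EGFP+ replicate 1, E11.5 Ebf2-EGFP+ replicate 2, E11.5 Ebf2-EGFP- replicate 1, E11.5 Ebf2-EGFP- replicate 2, E13.5 Ebf2-EGFP+ replicate 2 or E13.5 Ebf2-EGFP- replicate 1 (adjusted p from 0.0799 to 0.13).

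The single most negative interaction belonged to *Nxph1*, a neurexin ligand. *Nxph1* was at 27.5 and 22.2 FPKM in Ebf2-EGFP+ and 2.65 and 3.97 in Ebf2-EGFP- libraries at E11.5, and at 1.35 and 0.868 and 9.49 and 12.6 respectively at E13.5. The order reversed without overlap and stayed so at E15.5, where Ebf2-EGFP+ libraries held 0.596 and 0.724 FPKM and Ebf2-EGFP- libraries 11.6 and 12.2. Both populations moved, Ebf2-EGFP+ cells further (-3.62 in Ebf2-EGFP+ and 1.49 in Ebf2-EGFP- cells), and the interaction was -5.11 ± 0.30 (adjusted p = 1.65e-06). *Rasgrp1*, a Ras guanine nucleotide exchange factor, measured 36.6 and 41.8 FPKM in E11.5 Ebf2-EGFP+ libraries, 0.550 and 0.327 in E11.5 Ebf2-EGFP- libraries, 1.83 and 0.563 in E13.5 Ebf2-EGFP+ libraries and 0.380 and 0.323 in E13.5 Ebf2-EGFP- libraries. Only the fall in Ebf2-EGFP+ cells passed the test (-4.25 in Ebf2-EGFP+ and -0.09 in Ebf2-EGFP- cells, adjusted p = 0.753 for the latter), with an interaction of -4.17 ± 0.32 (adjusted p = 7.39e-06). *Cbln2*, a cerebellin that organises synapses, went from 38.0 and 36.3 FPKM at E11.5 to 9.99 and 3.97 at E13.5 in Ebf2-EGFP+ libraries, and from 1.43 and 1.65 to 8.92 and 6.76 in Ebf2-EGFP- libraries. It fell in Ebf2-EGFP+ cells and rose in Ebf2-EGFP- cells (-2.37 in Ebf2-EGFP+ and 1.79 in Ebf2-EGFP- cells), with an interaction of -4.16 ± 0.47 (adjusted p = 9.67e-05).

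The genes with the most positive interactions fell into 2 patterns. In 4 of the 10, Ebf2-EGFP+ cells rose and ended high, which holds for *Lpl*, *Camkv* and *Crym* beside *Grik3*. *Lpl*, lipoprotein lipase, was at 0.868 and 0.884 FPKM in Ebf2-EGFP+ and 8.85 and 6.96 in Ebf2-EGFP- libraries at E11.5, and at 33.6 and 38.5 and 7.69 and 11.8 respectively at E13.5. The order reversed without overlap, and Ebf2-EGFP+ cells alone passed (4.30 in Ebf2-EGFP+ and 0.25 in Ebf2-EGFP- cells, adjusted p = 0.485 for the latter), for an interaction of 4.05 ± 0.43 (adjusted p = 6.39e-05). *Camkv*, a kinase-like protein of vesicles, measured 1.65 and 2.08 FPKM in E11.5 Ebf2-EGFP+ libraries, 5.07 and 5.45 in E11.5 Ebf2-EGFP- libraries, 24.6 and 24.5 in E13.5 Ebf2-EGFP+ libraries and 3.31 and 4.32 in E13.5 Ebf2-EGFP- libraries. The rise in Ebf2-EGFP+ cells again passed alone (3.16 in Ebf2-EGFP+ and -0.39 in Ebf2-EGFP- cells, adjusted p = 0.0711 for the latter), for an interaction of 3.55 ± 0.24 (adjusted p = 3.62e-06). The fall of *Camkv* in Ebf2-EGFP- cells passed without E13.5 Ebf2-EGFP- replicate 2 (adjusted p = 0.0483). *Crym*, a thyroid hormone binding protein, went from 0.834 and 1.05 FPKM at E11.5 to 10.9 and 10.7 at E13.5 in Ebf2-EGFP+ libraries, and from 2.86 and 2.71 to 0.536 and 1.05 in Ebf2-EGFP- libraries. Ebf2-EGFP+ cells rose and Ebf2-EGFP- cells fell (2.60 in Ebf2-EGFP+ and -1.10 in Ebf2-EGFP- cells), for an interaction of 3.70 ± 0.46 (adjusted p = 0.000166). Without E11.5 Ebf2-EGFP- replicate 1, E11.5 Ebf2-EGFP- replicate 2 or E13.5 Ebf2-EGFP- replicate 1, the fall of *Crym* in Ebf2-EGFP- cells missed the threshold (adjusted p from 0.0506 to 0.0804). At E15.5 these 3 genes remained higher in Ebf2-EGFP+ cells, by 1.54, 2.09 and 2.90.

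**Figure D3:**
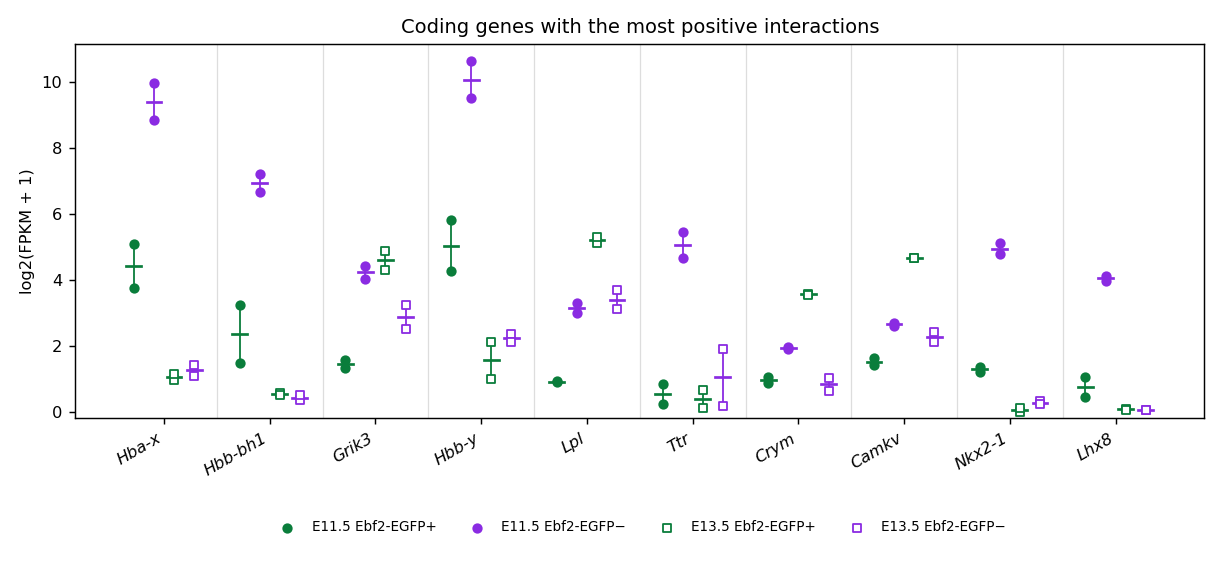
Levels in the 8 libraries, as log2(FPKM + 1), of the 10 coding genes with the most positive interactions, drawn as in the plot of the most negative ones. *Grik3*, *Lpl*, *Crym* and *Camkv* end with the open green squares on top, and in the other 6 genes the filled purple circles stand highest and both populations are low at E13.5.

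In the other 6, Ebf2-EGFP- cells started high and both populations were low at E13.5, so that a positive interaction there is the loss of an E11.5 signal. *Hba-x*, an embryonic alpha-like globin, was at 33.2 and 12.5 FPKM in Ebf2-EGFP+ and 464 and 1007 in Ebf2-EGFP- libraries at E11.5, and at 0.963 and 1.21 and 1.11 and 1.68 respectively at E13.5. *Hbb-y*, an embryonic beta-like globin, measured 55.0 and 18.4 FPKM in E11.5 Ebf2-EGFP+ libraries, 737 and 1589 in E11.5 Ebf2-EGFP- libraries, 3.33 and 0.992 in E13.5 Ebf2-EGFP+ libraries and 4.07 and 3.30 in E13.5 Ebf2-EGFP- libraries. *Hbb-bh1*, another embryonic beta-like globin, went from 8.49 and 1.75 FPKM at E11.5 to 0.470 and 0.422 at E13.5 in Ebf2-EGFP+ libraries, and from 101 and 147 to 0.271 and 0.409 in Ebf2-EGFP- libraries. These globins fell in both populations, with log2 changes of -8.17, -7.86 and -6.52 in Ebf2-EGFP- cells and of -3.37, -3.49 and -1.82 in Ebf2-EGFP+ cells, and with interactions of 4.80 ± 0.56 (adjusted p = 0.000121), 4.37 ± 0.68 (adjusted p = 0.000599) and 4.70 ± 0.58 (adjusted p = 0.000161). Globin paralogs can share reads, and the level of each alone is uncertain. The adult globin *Hbb-b2*, named after its values were seen, moved otherwise. *Hbb-b2* was at 1.49 and 1.67 FPKM in Ebf2-EGFP+ and 37.0 and 79.2 in Ebf2-EGFP- libraries at E11.5, and at 10.1 and 2.69 and 439 and 356 respectively at E13.5. It rose in both populations (1.31 in Ebf2-EGFP+ and 2.84 in Ebf2-EGFP- cells), and its interaction of -1.53 was not called (adjusted p = 0.0931), though it was with the replicate block (0.0149). Of 19 erythroid genes listed, 7 are in the table, 4 with a positive call and 0 with a negative one, beside 15.6% and 19.6% of all genes. Without E11.5 Ebf2-EGFP- replicate 2, 2 were negative. The list's summed FPKM was 100 and 34.7 in Ebf2-EGFP+ and 1347 and 2884 in Ebf2-EGFP- libraries at E11.5, and 15.1 and 9.97 and 572 and 461 at E13.5. The part of blood cells in these interactions was not tested.

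*Nkx2-1*, the homeobox factor of the medial ganglionic eminence, measured 1.32 and 1.58 FPKM in E11.5 Ebf2-EGFP+ libraries, 26.5 and 33.9 in E11.5 Ebf2-EGFP- libraries, 0 and 0.0686 in E13.5 Ebf2-EGFP+ libraries and 0.239 and 0.165 in E13.5 Ebf2-EGFP- libraries. *Lhx8*, a LIM homeobox factor of the same region, went from 0.372 and 1.08 FPKM at E11.5 to 0.0549 and 0.0397 at E13.5 in Ebf2-EGFP+ libraries, and from 14.5 and 16.5 to 0.0426 and 0.0240 in Ebf2-EGFP- libraries. Both factors stood far above all other libraries in E11.5 Ebf2-EGFP- cells and near 0 at E13.5. The log2 changes were -4.69 and -3.995 in Ebf2-EGFP- cells and -1.24 and -0.69 in Ebf2-EGFP+ cells, and the interactions were 3.45 ± 0.21 (adjusted p = 1.69e-06) and 3.31 ± 0.23 (adjusted p = 4.18e-06). *Sst*, the interneuron peptide somatostatin, moved against them. *Sst* was at 1.01 and 2.14 FPKM in Ebf2-EGFP+ and 10.3 and 17.5 in Ebf2-EGFP- libraries at E11.5, and at 4.95 and 2.43 and 107 and 76.7 respectively at E13.5. Ebf2-EGFP- cells rose (0.84 in Ebf2-EGFP+ and 2.66 in Ebf2-EGFP- cells, adjusted p = 0.0669 for the former), and the interaction was -1.82 ± 0.52 (adjusted p = 0.0183). This call was lost without E11.5 Ebf2-EGFP+ replicate 2, E11.5 Ebf2-EGFP- replicate 1, E13.5 Ebf2-EGFP+ replicate 2 or E13.5 Ebf2-EGFP- replicate 1 (adjusted p = 0.0801, 0.0819, 0.0762 and 0.0635). The rise of *Sst* in Ebf2-EGFP+ cells passed without E13.5 Ebf2-EGFP+ replicate 2 (adjusted p = 0.0346). Of 24 ganglionic eminence and interneuron genes, 8 had a positive and 4 a negative interaction (median 0.49), beside 15.6% and 19.6% of all genes. Under median-of-ratios scaling the counts were 6 and 5 and the median was 0.34. Their summed FPKM was 54.2 and 59.0 in Ebf2-EGFP+ and 362 and 442 in Ebf2-EGFP- libraries at E11.5, and 25.6 and 17.6 and 271 and 212 at E13.5, highest in the Ebf2-EGFP- libraries of both stages. Their part in the interactions of other genes was not tested.

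*Ttr*, transthyretin, a marker of choroid plexus, measured 0.180 and 0.784 FPKM in E11.5 Ebf2-EGFP+ libraries, 24.5 and 43.3 in E11.5 Ebf2-EGFP- libraries, 0.571 and 0.0688 in E13.5 Ebf2-EGFP+ libraries and 2.73 and 0.125 in E13.5 Ebf2-EGFP- libraries. Ebf2-EGFP- cells fell and the change in Ebf2-EGFP+ cells did not pass (-0.16 in Ebf2-EGFP+ and -4.03 in Ebf2-EGFP- cells, adjusted p = 0.769 for the former), for an interaction of 3.87 ± 0.64 (adjusted p = 0.000826). Of 27 factors and signals of the cortical hem and other borders of the pallium, 13 had a positive interaction, 4 a negative one and 10 no call (median 0.82), beside 15.6% and 19.6% of all genes. 20 of the 27 fell in Ebf2-EGFP- cells, as did 21 in Ebf2-EGFP+ cells, beside 33.5% and 36.1% of all genes. *Rspo1*, a secreted Wnt agonist, went from 2.02 and 1.97 FPKM at E11.5 to 0.388 and 0.345 at E13.5 in Ebf2-EGFP+ libraries, and from 26.7 and 28.4 to 1.53 and 0.183 in Ebf2-EGFP- libraries. Both populations fell, Ebf2-EGFP- cells further (-1.13 in Ebf2-EGFP+ and -4.04 in Ebf2-EGFP- cells), for an interaction of 2.91 ± 0.39 (adjusted p = 0.000244). *Rspo2*, its relative, was at 4.50 and 5.88 FPKM in Ebf2-EGFP+ and 23.9 and 23.7 in Ebf2-EGFP- libraries at E11.5, and at 1.63 and 0.777 and 1.51 and 0.123 respectively at E13.5. It fell likewise (-1.51 in Ebf2-EGFP+ and -3.89 in Ebf2-EGFP- cells), with an interaction of 2.38 ± 0.44 (adjusted p = 0.00176). *Otx2*, *Wnt8b* and *Wnt3a* had interactions of 2.16, 1.87 and 1.70. The LIM factor *Lhx9* went the other way. *Lhx9* measured 71.3 and 74.9 FPKM in E11.5 Ebf2-EGFP+ libraries, 1.85 and 2.30 in E11.5 Ebf2-EGFP- libraries, 14.5 and 7.59 in E13.5 Ebf2-EGFP+ libraries and 4.81 and 2.72 in E13.5 Ebf2-EGFP- libraries. Here the fall in Ebf2-EGFP+ cells passed and the change in Ebf2-EGFP- cells did not (-2.68 in Ebf2-EGFP+ and 0.60 in Ebf2-EGFP- cells, adjusted p = 0.209 for the latter), for an interaction of -3.28 ± 0.56 (adjusted p = 0.00111).

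Most markers of vessels and meninges were also higher in Ebf2-EGFP- cells at E11.5, all 7 vascular genes and 9 of 10 meningeal genes. Of 10 meningeal and fibroblast genes in the table, 6 had a positive interaction and 0 a negative one (median 0.88), beside 15.6% and 19.6% of all genes. All 10 fell in Ebf2-EGFP- cells, beside 33.5% of all genes. *Lum*, the matrix proteoglycan lumican, went from 2.96 and 2.55 FPKM at E11.5 to 0.208 and 0.113 at E13.5 in Ebf2-EGFP+ libraries, and from 10.8 and 11.46 to 0.283 and 0.0683 in Ebf2-EGFP- libraries. Both populations fell to under 1 FPKM, Ebf2-EGFP- cells further (-1.69 in Ebf2-EGFP+ and -3.37 in Ebf2-EGFP- cells), for an interaction of 1.68 ± 0.19 (adjusted p = 9.18e-05). *Aldh1a2* is listed at 0 in both E13.5 Ebf2-EGFP- libraries. The summed FPKM of this list was 342 and 304 in Ebf2-EGFP+ and 280.2 and 261 in Ebf2-EGFP- libraries at E11.5, and 28.2 and 13.2 and 30.2 and 16.0 at E13.5, of which the retinoic acid binding protein *Crabp2* made up most at E11.5 in Ebf2-EGFP+ cells (299.6 and 256). Of 18 endothelial and mural genes 7 are in the table, with 4 positive and 1 negative call, beside 15.6% and 19.6% of all genes. The summed FPKM of these 7 was 2.67 and 3.70 in Ebf2-EGFP+ and 21.9 and 16.6 in Ebf2-EGFP- libraries at E11.5, and 5.22 and 3.61 and 10.7 and 12.4 at E13.5. Of 14 microglial genes the table holds only *Aif1*, which was under 1 FPKM in all 8 libraries and had an interaction of 0.45 (adjusted p = 0.0492), which was not called in 7 of the 8 fits that left out a library, all but that without E13.5 Ebf2-EGFP+ replicate 2. Their part in the interactions was not tested.

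**Figure D4:**
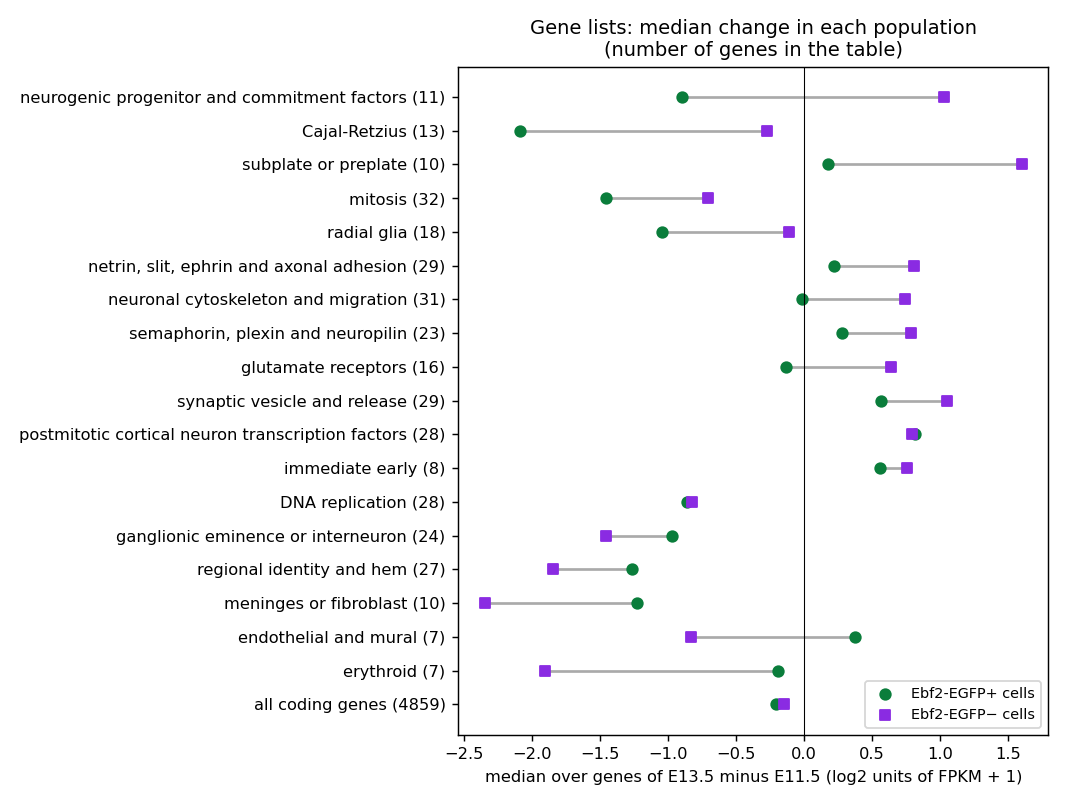
Median change from E11.5 to E13.5 over the genes of each list in Ebf2-EGFP+ cells (green circles) and Ebf2-EGFP- cells (purple squares), in log2 units of FPKM + 1, with the number of genes in the table in brackets and all coding genes in the last line. For neurogenic progenitor factors the medians have opposite signs (-0.89 and 1.03), for Cajal-Retzius genes the green circle lies furthest left (-2.09), and for DNA replication the symbols coincide (-0.86 and -0.82).

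Most genes of the progenitors themselves were higher in Ebf2-EGFP- cells, with 15 of 18 radial glia genes on that side at E11.5 and a median difference of -2.48 at E11.5 and -3.03 at E13.5. Of these 18 radial glia genes, 5 had a negative interaction and 0 a positive one (median -0.68), beside 19.6% and 15.6% of all genes, and 11 fell in Ebf2-EGFP+ cells, beside 36.1%. With the replicate block, 8 were negative and 1 positive, beside 1426 and 1092 of all 4859 genes. The negative count was 2 without either E11.5 Ebf2-EGFP+ library, E11.5 Ebf2-EGFP- replicate 1, E13.5 Ebf2-EGFP+ replicate 2 or E13.5 Ebf2-EGFP- replicate 1, and 3 without E11.5 Ebf2-EGFP- replicate 2. *Lhx2*, a LIM homeobox factor of the pallium, was at 279 and 259.7 FPKM in Ebf2-EGFP+ and 186 and 178 in Ebf2-EGFP- libraries at E11.5, and at 132 and 116 and 214 and 182 respectively at E13.5. The difference turned round (0.56 at E11.5, -0.67 at E13.5), through a fall in Ebf2-EGFP+ cells (-1.12 in Ebf2-EGFP+ and 0.12 in Ebf2-EGFP- cells, adjusted p = 0.666 for the latter), with an interaction of -1.23 ± 0.32 (adjusted p = 0.0121). *Id4*, an inhibitor of bHLH factors, measured 35.5 and 35.0 FPKM in E11.5 Ebf2-EGFP+ libraries, 124 and 128 in E11.5 Ebf2-EGFP- libraries, 12.9 and 9.14 in E13.5 Ebf2-EGFP+ libraries and 171 and 99.1 in E13.5 Ebf2-EGFP- libraries. *Notch1*, the Notch receptor of progenitors, went from 11.6 and 11.3 FPKM at E11.5 to 4.04 and 2.95 at E13.5 in Ebf2-EGFP+ libraries, and from 62.7 and 50.3 to 43.7 and 33.2 in Ebf2-EGFP- libraries. Both genes fell in Ebf2-EGFP+ cells (-1.61 and -1.48), with changes in Ebf2-EGFP- cells that did not pass, and their interactions were -1.66 ± 0.47 (adjusted p = 0.0176) and -0.93 ± 0.33 (adjusted p = 0.0461). The fall of *Notch1* in Ebf2-EGFP- cells passed without E13.5 Ebf2-EGFP- replicate 1 (adjusted p = 0.0402). The call of *Id4* was lost without either E11.5 Ebf2-EGFP+ library, E11.5 Ebf2-EGFP- replicate 1, E13.5 Ebf2-EGFP+ replicate 2 or E13.5 Ebf2-EGFP- replicate 1 (adjusted p from 0.0516 to 0.0688), and that of *Notch1* without any E11.5 library, E13.5 Ebf2-EGFP+ replicate 2 or E13.5 Ebf2-EGFP- replicate 1 (adjusted p from 0.0604 to 0.155). *Sox2* had an interaction of -0.24 (adjusted p = 0.789) and *Pax6* of -1.09 (adjusted p = 0.0597, and 0.000225 with the replicate block).

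Most cell division genes fell with stage in both populations. None of the 28 DNA replication genes had a called interaction, 2 had an unadjusted p under 0.05 (45.2% of all genes had one), and the median was -0.03. Ebf2-EGFP+ cells showed a fall of 18 of them, and Ebf2-EGFP- cells of 22, beside 36.1% and 33.5% of all genes. With the replicate block, 3 were called negative and 2 positive, beside 1426 and 1092 of all 4859 genes. All 32 mitosis genes fell in Ebf2-EGFP+ cells and 17 fell in Ebf2-EGFP- cells, with a median interaction of -0.71. The interaction of *Tpx2*, a spindle assembly factor, was the only mitosis call, while 7 of the 32 genes had an unadjusted p under 0.05. With the replicate block 22 of the 32 were called, all negative, beside the 1426 negative calls over all genes. *Tpx2* was at 29.4 and 27.3 FPKM in Ebf2-EGFP+ and 73.1 and 66.0 in Ebf2-EGFP- libraries at E11.5, and at 10.6 and 7.24 and 49.7 and 37.8 respectively at E13.5. Both populations fell (-1.58 in Ebf2-EGFP+ and -0.67 in Ebf2-EGFP- cells), with an interaction of -0.92 ± 0.31 (adjusted p = 0.0384) that was lost without any E11.5 library, E13.5 Ebf2-EGFP+ replicate 2 or E13.5 Ebf2-EGFP- replicate 1 (adjusted p from 0.0728 to 0.15). The fall of *Tpx2* in Ebf2-EGFP- cells missed the threshold without E11.5 Ebf2-EGFP- replicate 1, E11.5 Ebf2-EGFP- replicate 2 or E13.5 Ebf2-EGFP- replicate 2 (adjusted p from 0.0524 to 0.163). Without E13.5 Ebf2-EGFP+ replicate 1, 6 mitosis genes were called, and without E13.5 Ebf2-EGFP- replicate 2, 3. The E13.5 Ebf2-EGFP- replicates differed in these genes, with a summed mitosis level of 1356 and 896 FPKM.

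Of 8 immediate early genes, which respond to handling and stimulation of cells, 1 had a positive interaction and 0 a negative one, beside 15.6% and 19.6% of all genes. The replicate block gave 2 of each, beside 1092 positive and 1426 negative of all 4859 genes. *Junb* measured 5.80 and 3.17 FPKM in E11.5 Ebf2-EGFP+ libraries, 5.10 and 5.9997 in E11.5 Ebf2-EGFP- libraries, 9.24 and 10.01 in E13.5 Ebf2-EGFP+ libraries and 3.32 and 5.90 in E13.5 Ebf2-EGFP- libraries. Ebf2-EGFP+ cells rose and the change in Ebf2-EGFP- cells did not pass (1.00 in Ebf2-EGFP+ and -0.26 in Ebf2-EGFP- cells, adjusted p = 0.463 for the latter), with an interaction of 1.25 ± 0.42 (adjusted p = 0.0364). The call was lost without either E13.5 Ebf2-EGFP+ library, either E11.5 Ebf2-EGFP- library, E11.5 Ebf2-EGFP+ replicate 2 or E13.5 Ebf2-EGFP- replicate 1 (adjusted p from 0.0649 to 0.15). Without E11.5 Ebf2-EGFP+ replicate 2 or E13.5 Ebf2-EGFP+ replicate 2, the rise of *Junb* in Ebf2-EGFP+ cells missed the threshold (adjusted p = 0.144 and 0.0664).

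Among the 200 lncRNA transcripts, 67 had a called interaction (33.5%), 42 negative (21.0%) and 25 positive (12.5%). Median-of-ratios scaling within this table turned the split to 26 negative and 40 positive, moving the median interaction from -0.16 to 0.20, whereas factors taken from the coding table, an alternative chosen after seeing the data, gave 34 negative and 23 positive, all 57 shared with the calls above. Over all 200, 37.0% changed in Ebf2-EGFP+ cells, against 39.5% in Ebf2-EGFP- cells. Only Ebf2-EGFP+ cells changed in 29 of the 67, only Ebf2-EGFP- cells in 22, both the same way in 10, both in opposite ways in 4, and in 2 neither change passed. Without E11.5 Ebf2-EGFP+ replicate 1, 14 were positive and 15 changed only in Ebf2-EGFP+ cells, and the latter count was 15 without E11.5 Ebf2-EGFP+ replicate 2 and 19 without E13.5 Ebf2-EGFP- replicate 1. Positions below are those of GENCODE M21 on GRCm38.

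*Gm28050*, a lincRNA at chr5:106557739-106574718 on the minus strand, went from 23.3 and 23.1 FPKM at E11.5 to 5.89 and 3.77 at E13.5 in Ebf2-EGFP+ libraries, and from 0.802 and 1.79 to 2.02 and 2.73 in Ebf2-EGFP- libraries. Ebf2-EGFP+ cells fell and the change in Ebf2-EGFP- cells did not pass (-2.08 in Ebf2-EGFP+ and 0.58 in Ebf2-EGFP- cells, adjusted p = 0.204 for the latter), with an interaction of -2.66 ± 0.47 (adjusted p = 0.00178). *RP23-326H18.1*, which lies within *Ttc28* on the same strand at chr5:110978665-110979217, was at 27.5 and 26.9 FPKM in Ebf2-EGFP+ and 1.95 and 1.30 in Ebf2-EGFP- libraries at E11.5, and at 45.8 and 50.03 and 19.5 and 35.7 respectively at E13.5. The Ebf2-EGFP- cells rose while Ebf2-EGFP+ cells did not pass (0.79 in Ebf2-EGFP+ and 3.40 in Ebf2-EGFP- cells, adjusted p = 0.0553 for the former), with an interaction of -2.60 ± 0.41 (adjusted p = 0.000959), and reads of *Ttc28* could be counted with it. *Gm29260*, a lincRNA at chr1:41781808-41939560 on the plus strand, measured 0.616 and 0.861 FPKM in E11.5 Ebf2-EGFP+ libraries, 1.16 and 1.77 in E11.5 Ebf2-EGFP- libraries, 0.877 and 0.563 in E13.5 Ebf2-EGFP+ libraries and 14.9 and 12.03 in E13.5 Ebf2-EGFP- libraries. It rose in Ebf2-EGFP- cells alone, from levels just above those of Ebf2-EGFP+ cells (-0.02 in Ebf2-EGFP+ and 2.56 in Ebf2-EGFP- cells, adjusted p = 0.962 for the former), with an interaction of -2.58 ± 0.28 (adjusted p = 0.000149).

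*Gm2694*, a lincRNA at chr8:87472812-87525553 that starts 203 bases from *Cbln1* on the other strand, went from 26.0 and 19.2 FPKM at E11.5 to 4.73 and 0.865 at E13.5 in Ebf2-EGFP+ libraries, and from 2.67 and 2.03 to 2.53 and 1.44 in Ebf2-EGFP- libraries. The E13.5 Ebf2-EGFP+ replicates were far apart and overlapped Ebf2-EGFP- libraries. Ebf2-EGFP+ cells fell (-2.84 in Ebf2-EGFP+ and -0.18 in Ebf2-EGFP- cells, adjusted p = 0.827 for the latter), and the interaction was -2.65 ± 0.77 (adjusted p = 0.0243), lost without either E11.5 Ebf2-EGFP+ library, E11.5 Ebf2-EGFP- replicate 2, E13.5 Ebf2-EGFP+ replicate 2 or E13.5 Ebf2-EGFP- replicate 1 (adjusted p from 0.0503 to 0.0921).

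For 3 of the 4 positive lncRNAs the signal stood mainly in E11.5 Ebf2-EGFP- cells. *AI606473*, which lies 162 bases from *Lhx8* on the opposite strand at chr3:154330821-154334254, was at 0.0239 and 0.569 FPKM in Ebf2-EGFP+ and 3.84 and 4.70 in Ebf2-EGFP- libraries at E11.5, and at 0.0318 and 0 and 0 and 0.0278 respectively at E13.5. Its neighbour *Lhx8* had the same pattern. Ebf2-EGFP- cells fell (-0.32 in Ebf2-EGFP+ and -2.37 in Ebf2-EGFP- cells, adjusted p = 0.184 for the former), with an interaction of 2.05 ± 0.24 (adjusted p = 0.000255). *Gm29478*, a lincRNA at chr9:91404474-91562818, 15126 bases from *Zic4*, measured 0.597 and 0.491 FPKM in E11.5 Ebf2-EGFP+ libraries, 2.86 and 5.65 in E11.5 Ebf2-EGFP- libraries, 0 and 0.0708 in E13.5 Ebf2-EGFP+ libraries and 0 and 0 in E13.5 Ebf2-EGFP- libraries. Both populations fell (-0.58 in Ebf2-EGFP+ and -2.34 in Ebf2-EGFP- cells), with an interaction of 1.76 ± 0.28 (adjusted p = 0.000959).

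*Gm28872*, at chr4:132270056-132270213 and overlapping the small nuclear RNA gene *Rnu11* on the opposite strand, was at 12.4 and 6.10 FPKM in the E11.5 Ebf2-EGFP- libraries and is listed at 0 in the other 6. Its interaction was 3.29 ± 0.68 (adjusted p = 0.0044), through Ebf2-EGFP- cells (-3.29). The strand setting of the counting is not given in the sources used here, so reads of *Rnu11* cannot be told apart from it. *9930014A18Rik*, which overlaps *Fam84b* antisense at chr15:60822271-60828650, went from 0.489 and 0.482 FPKM at E11.5 to 1.12 and 2.48 at E13.5 in Ebf2-EGFP+ libraries, and from 3.33 and 3.01 to 0.766 and 0.923 in Ebf2-EGFP- libraries. Ebf2-EGFP+ cells rose and Ebf2-EGFP- cells fell (0.87 in Ebf2-EGFP+ and -1.18 in Ebf2-EGFP- cells), with an interaction of 2.05 ± 0.32 (adjusted p = 0.000959). Another transcript of *9930014A18Rik* had a smaller interaction of 0.75 (adjusted p = 0.0256). That transcript rose in Ebf2-EGFP+ cells (0.59), and its change in Ebf2-EGFP- cells did not pass (-0.17, adjusted p = 0.428).

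**Figure D5:**
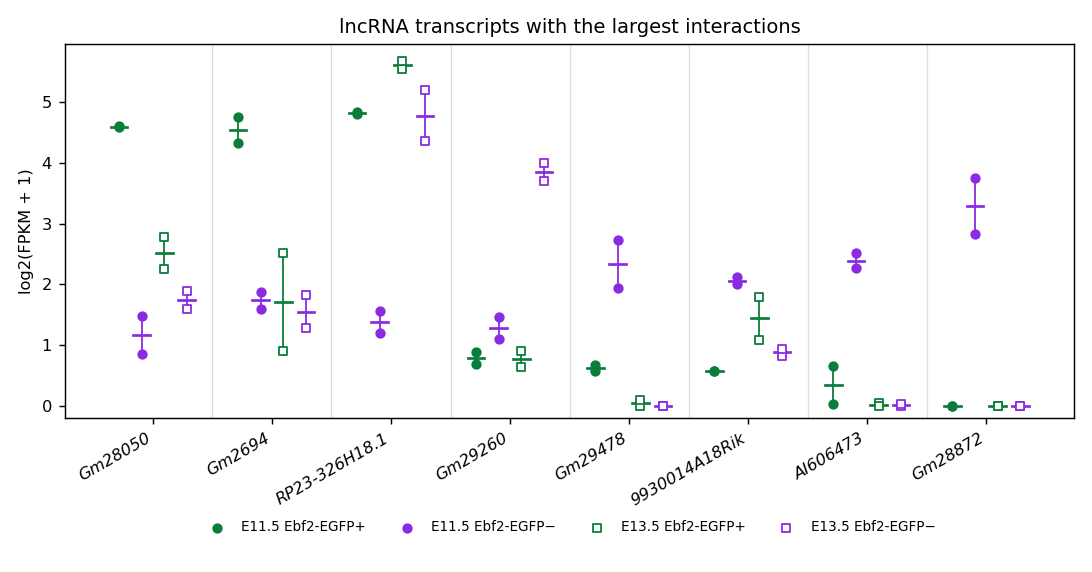
Levels in the 8 libraries, as log2(FPKM + 1), of the 8 lncRNA transcripts with the largest interactions in each direction, drawn as in the plots of coding genes. *Gm28050* shows a fall in Ebf2-EGFP+ cells, *RP23-326H18.1* and *Gm29260* show a rise in Ebf2-EGFP- cells, and *AI606473*, *Gm29478* and *Gm28872* show a signal that E11.5 Ebf2-EGFP- libraries hold almost alone.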

How the data were processed

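Embryonic cortices of 3 stages, E11.5 to E15.5, were dissociated, sorted for EGFP and sequenced from oligo-dT captured RNA, in 12 libraries of which 8 enter the comparison. The FPKM values were made by the authors with TopHat2 2.0.8b on mm10 and Cufflinks 2.2.0, with a UCSC annotation for coding genes and an Ensembl and GENCODE annotation for lncRNAs, and were deposited as a coding table and an lncRNA table. The study names both DE-Seq and Cuffdiff for the selection of features in these tables. Its columns of group means, fold changes and p-values were not used. The strand setting of the counting is not given in the sources used here. Fragments could not be recovered from the FPKM, because at best 35.7% to 50% of 70 to 139 low genes a group lay on a whole-fragment grid within 0.5%, so that depth is unknown.

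The values were taken as log2(FPKM + 1), with no filter and no scaling beyond FPKM, and fitted with limma 3.58.1 in R 4.3.3 as 6 groups of 2 biological replicates, with a mean-dependent prior variance. All p are two-sided and were adjusted by Benjamini and Hochberg within each table and contrast. On simulated data for the interaction over 4859 genes, 54 of 100 genes with a log2 change of 1 and 92 of 100 with a change of 2 were recovered. These genes had a mean log2(FPKM + 1) over 2, and the simulated libraries were independent. Fewer genes changed there than were called in the data, so that recovery in the data can differ. As each replicate pools embryos of several mothers, p-values measure the spread between pools. Deviations of the same-numbered replicates of both populations correlated at every stage (0.431, 0.534 and 0.431 for coding genes, 0.265, 0.385 and 0.435 for lncRNAs, across genes, which are not independent), so that the numbers were read as pairs, from the data and not from a label. The main fit, whose calls are quoted unless stated, did not use these pairs. They enter only the replicate block.

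Genes were named as *Tbr1*, *Neurod1* and *Plxna4*, then the 10 coding genes with the largest called interaction in each direction that reached 5 FPKM in a group and whose 4 between-library differences at E13.5 did not overlap those at E11.5, then 4 lncRNAs in each direction that reached 1 FPKM, and up to 3 called genes for each of 19 lists. Values of a few of these genes are not reported here. The members and lists were chosen with earlier results of these data known, and other list members are named after their values were seen. The alternatives were another pseudocount, scaling, filter, prior, threshold or fold, the 8 libraries alone, the replicate block, and leaving out each library.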

Additional observations from a re-analysis of the deposited data

Results flagged for a closer look

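A change of the population difference between stages was itself what was tested, so that every called interaction is a difference between the E11.5 and E13.5 effects of the same contrast. In limma these were 757 positive and 952 negative coding genes, and 25 positive and 42 negative lncRNAs. Among the 58 genes named by rule, 8 had a called difference of opposite sign at both stages. *Nxph1* (interaction -5.11), *Eomes* (-4.87) and *Lhx2* (-1.23) went from higher to lower in Ebf2-EGFP+ cells. *Grik3* (4.50), *Lpl* (4.05), *Crym* (3.70), *Camkv* (3.55) and *Sema4d* (1.89) went from lower to higher. With groups of 2 libraries, no library could be tested for standing apart from its group.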

How the results depend on the processing

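Of the 58 named genes, 52 kept their call under every alternative fit that held them, none reversed, and *Id4*, *Notch1*, *Tpx2*, *Sst*, *Junb* and *Gm2694* lost it under at least 1. These 6 and *Lhx2* missed an adjusted p under 0.01, which 51 met, and 56 had an absolute interaction of at least 1. *AI606473* and *Gm29478*, counted among the 52, fell below the filter of a mean of at least 1 FPKM. They were not tested in that fit. With a pseudocount of 0.1, *Sst* (adjusted p = 0.0714) and *Gm2694* (adjusted p = 0.0858) were not called. With the replicate number as a block, which pairs the populations of a stage, 1092 coding genes were positive and 1426 negative, including all 1709 called without it, and 33 and 52 lncRNAs, including all 67. The block could not be fitted for the changes within a population. At an adjusted p under 0.01, 398 coding genes were positive and 548 negative, with 341 changing only in Ebf2-EGFP+ cells, 343 only in Ebf2-EGFP- cells, 165 in both the same way and 72 in opposite ways, and 14 lncRNAs were positive, 26 negative and 18 changing only in Ebf2-EGFP+ cells. At an absolute interaction of at least 1, 409 coding genes were positive and 575 negative, with 314 changing only in Ebf2-EGFP+ cells, 272 only in Ebf2-EGFP- cells and 236 in both the same way, beside 11 positive lncRNAs and 14 changing only in Ebf2-EGFP+ cells. Of lncRNAs, 15 were positive and 19 changed only in Ebf2-EGFP+ cells with a pseudocount of 0.1, 13 and 15 with a mean of at least 1 FPKM, and 40 were positive and 26 negative under median-of-ratios scaling. Leaving out each library gave 503 to 748 positive coding genes, 342 to 571 changing only in Ebf2-EGFP- cells, 235 to 390 in both the same way and 99 to 171 in opposite ways, and 14 to 22 positive lncRNAs with 15 to 26 changing only in Ebf2-EGFP+ cells. The populations that passed were the same in all 8 of these fits for 37 of the 50 named coding genes. A stricter threshold or fold lowers counts by construction, and for the other settings the cause was not tested. Depth is unknown, so that precision rests on 2 pools a group.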
